A study of Mus musculus with 2 samples.

Results

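The skeletal genes described here are 39 genes of bone, cartilage and osteoclasts, chosen by symbol from the 55536 named genes of the series. They comprise 19 osteoblast genes, 4 osteocyte genes, 7 osteoclast genes, 8 chondrocyte genes and 1 liver-derived serum protein gene. The choice used the ratio of the libraries in these same data, so the ratio is given as a description and no test is made of it. Total RNA came from the gastrocnemius, the large calf muscle, of female B6CASTF1/J mice (a hybrid of C57BL/6J and CAST/EiJ) at 10 days of age. The animals carried no engineered allele and received no treatment that the labels name. The series holds 1 group of 2 libraries, biological replicates 1 and 2 from separate biosamples, each made from 300 ng of RNA after ribosomal RNA reduction and with ERCC spike-ins added. Whether each biosample came from 1 animal is not given in the sources used here.

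Bone is laid down by osteoblasts, which secrete type I collagen and acidic phosphoproteins and raise local phosphate so that mineral forms. Some osteoblasts become buried as osteocytes, which sense load and regulate phosphate and bone formation through secreted factors. Osteoclasts are multinucleated cells of the macrophage lineage that dissolve bone with acid and proteases. Chondrocytes make cartilage from type II collagen and aggrecan, and enlarge to hypertrophic chondrocytes, marked by type X collagen, where cartilage is replaced by bone. None of these cells belongs to the contractile tissue of a calf muscle, which arises from the femur and inserts on the heel bone through the Achilles tendon.

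The tables hold 35925081 expected counts in replicate 1 and 39969380 in replicate 2. All 12 muscle fibre genes of a reference list were present in both libraries, with summed TPM (a level scaled by transcript length and to the same total in each library) of 95695 and 111281. A log2 ratio below is that of replicate 1 over replicate 2 after TMM scaling, which matches the bulk of genes between libraries, on whole counts with a prior count of 0.5. A fold value given for a gene is the ratio of its TMM-scaled counts without a prior count, and can differ from the ratio of its TPMs. Library totals raise such a log2 ratio by 0.24 and spike-in totals by 0.39, and by less for genes at or near 0 counts in a library. With 1 library on each side no test between libraries is possible, so each ratio compares these libraries only. In whole tissue, fewer cells of a type and less RNA per cell cannot be told apart.

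Transcripts of the chosen genes were concentrated in replicate 1. The 39 genes summed to a TPM of 540 in replicate 1 and 35.0 in replicate 2. In replicate 1, 29 of the 39 reached a TPM of 1 or more, as did 24.5% of all named genes. In replicate 2, 5 of the 39 did, against 22.9% of all named genes. Those 5 were the cartilage collagen Col2a1 at 11.5, the protease Ctsk at 10.9, the hormone receptor Pth1r at 1.90, the osteocyte gene Dmp1 at 1.70 and the cartilage proteoglycan Acan at 1.54. Alpl at 0.99, Mmp9 at 0.96, Sox9 at 0.88 and Acp5 at 0.87 lay just below that level in replicate 2.

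**Figure D1:**
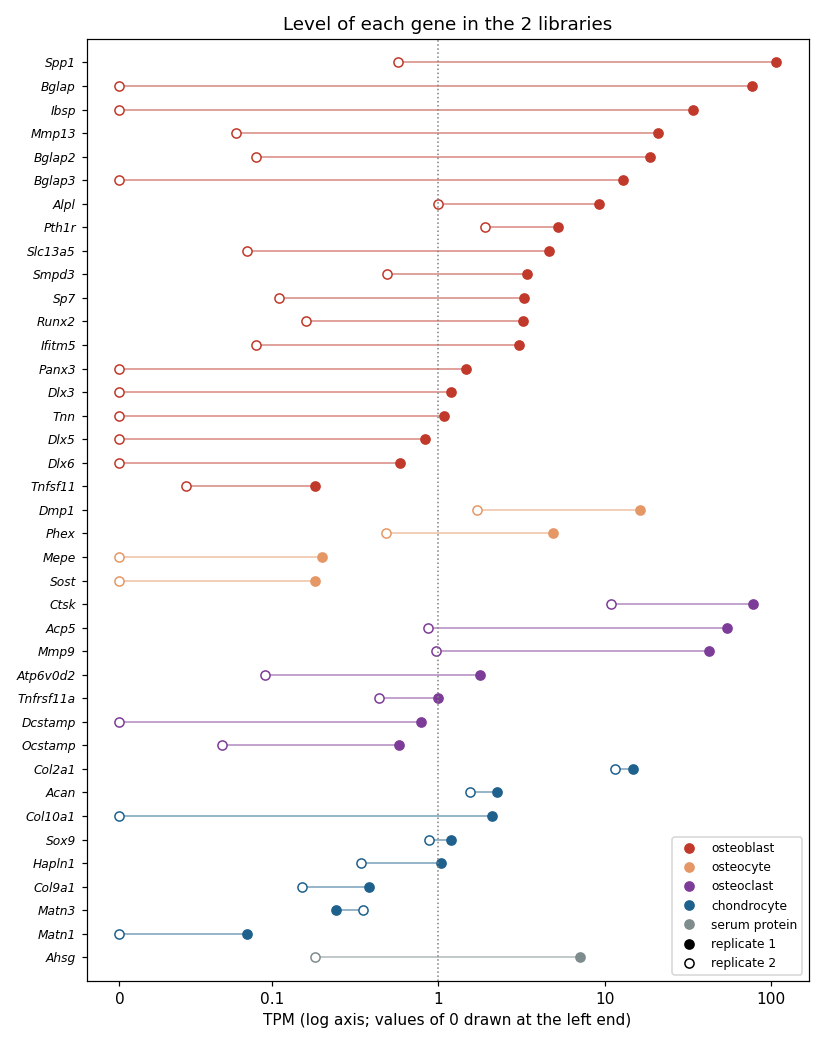
TPM of each of the 39 genes on a log axis, with replicate 1 as a filled and replicate 2 as an open circle, coloured by cell class. The dotted line marks a TPM of 1, and values of 0 are drawn at the left end. The open circle lies to the left of the filled one in every row but that of Matn3, and the gap is small for Col2a1, Acan and Sox9.

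Of the 39 genes, 32 had a mean count of 20 or more, and 26 of these were at least 2-fold higher in replicate 1. Among all 15204 genes at that count, 4.05% were. No member was at least 2-fold higher in replicate 2, where 0.5% of all genes were. At 4-fold the count was 24 of 32 members against 0.796% of genes, and at 8-fold 20 of 32 against 0.526% (0.555% of protein coding genes). By any amount, 31 of 32 were higher in replicate 1, against 44.2% of genes. The choice of members used this contrast, so these counts add nothing to it. The 7 genes below the count limit were Dlx5, Dlx6, Tnfsf11, Mepe, Sost, Dcstamp and Matn1, all with more counts in replicate 1.

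The cell classes differed in the size of the gap. Osteoblast genes summed to a TPM of 309 and 4.54 in replicates 1 and 2 (157 ± 215, SD, n = 2). Osteocyte genes summed to 21.6 and 2.18 (11.9 ± 13.7), and osteoclast genes to 180 and 13.4 (96.8 ± 118). Chondrocyte genes summed to 22.0 and 14.8 (18.4 ± 5.10). The ratio of these summed TPMs, which has no TMM scaling, was 1.49 for chondrocyte genes. It was 68.1 for osteoblast, 13.5 for osteoclast and 9.90 for osteocyte genes. The median log2 ratio was 7.09 over 16 osteoblast genes (5.29 with genes at 0 in replicate 2 set to 3 counts there), 3.08 over 2 osteocyte, 3.52 over 6 osteoclast and 0.26 over 7 chondrocyte genes. Over all 15204 genes it was -0.04, and the 5th to 95th percentile ran from -0.50 to 0.88.

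**Figure D2:**
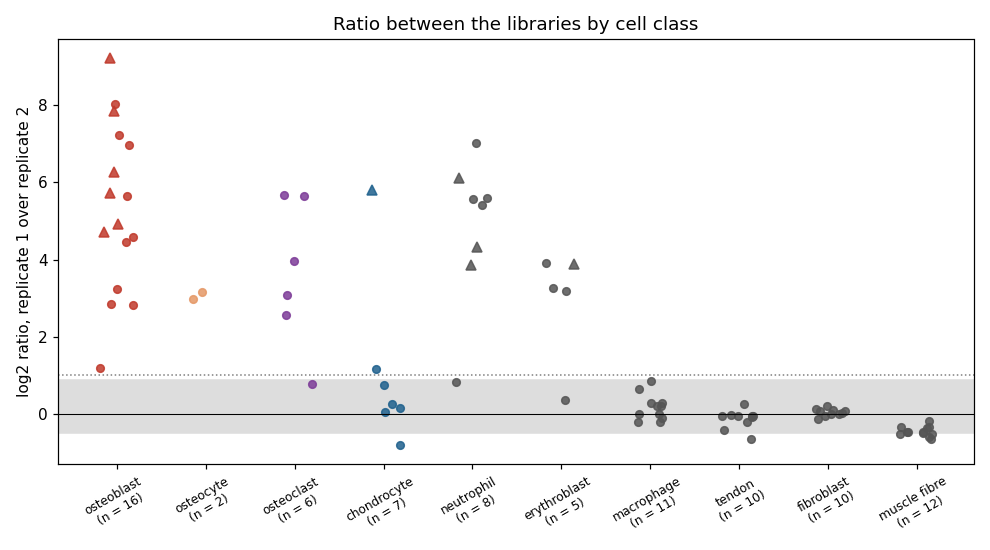
Log2 ratio of replicate 1 over replicate 2 for each gene at a mean count of 20 or more, by class, with the number of genes under each name. Triangles are genes at 0 counts in replicate 2, drawn at their lower bound against 3 counts, the grey band holds the 5th to 95th percentile of all genes, and the dotted line is 2-fold. All 16 osteoblast genes lie above that line and 5 of the 7 chondrocyte genes below it.

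The class shares of the summed TPM over the chosen genes differed between the libraries. The genes were chosen by the ratio of the libraries, so the shares describe this list and not all skeletal RNA. They also follow the class labels, since Spp1 and Mmp13, placed with the osteoblast genes, also occur in hypertrophic chondrocytes. Osteoblast genes held 57.2% of the summed TPM in replicate 1 and 13.0% in replicate 2. Chondrocyte genes held 4.07% and 42.2%. Osteoclast genes held 33.4% and 38.1%, and osteocyte genes 4.00% and 6.22%. Ctsk alone made up most of the osteoclast sum in replicate 2, at 10.9 of 13.4. Likewise Col2a1 alone made up most of the chondrocyte sum there, at 11.5 of 14.8. By the kallisto-format tables, a second quantification of the same libraries, osteoblast genes held 56.3% and 16.3%, and chondrocyte genes 3.57% and 38.0%.

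**Figure D3:**
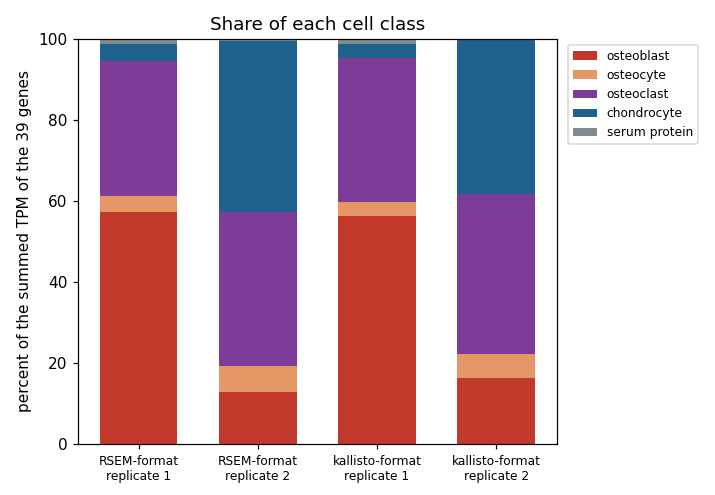
Share of each cell class in the summed TPM of the 39 genes, in percent, for both libraries and both kinds of table. Osteoblast genes form the tallest segment in replicate 1, at 57.2% and 56.3%, and fall to 13.0% and 16.3% in replicate 2, where the chondrocyte segment stands at 42.2% and 38.0%.

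The transcription factors of the osteoblast lineage were low in level in replicate 1 and near or at 0 in replicate 2. Runx2, the factor that commits cells to the osteoblast fate, had 274 and 27 counts (TPM 3.24 and 0.16). Sp7, or osterix, which acts after Runx2, had 268 and 10 counts (3.26 and 0.11). Both were thus present in replicate 2, at 9.53-fold and 25.2-fold lower scaled counts. The TPMs of Runx2 lay further apart than its scaled counts. The distal-less homeobox genes, which act in limb and jaw skeleton, had no count in replicate 2. Dlx3 had 84 counts in replicate 1, Dlx5 had 31 and Dlx6 had 15. Against a floor of 3 counts per library, Dlx3 was at least 26.3-fold, Dlx5 at least 9.71-fold and Dlx6 at least 4.70-fold higher in replicate 1. Dlx6 is uncertain, since its kallisto-format counts were 31.1 and 11.1 and it overlaps the antisense gene Dlx6os1.

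Several secreted products of osteoblasts had wide gaps. Spp1, osteopontin, an acidic glycoprotein that also occurs in macrophages and hypertrophic chondrocytes, had a TPM of 107 and 0.57. It ranked 641st of all named genes in replicate 1 and 13966th in replicate 2. Ibsp, bone sialoprotein, which nucleates mineral, had a TPM of 34.2 from 1900 counts in replicate 1 and 0 counts in replicate 2, at least 595-fold higher. Mmp13, a collagenase of osteoblasts and hypertrophic chondrocytes, had 1527 and 5 counts (TPM 21.04 and 0.06, 287-fold). Tnn, tenascin-W of the periosteum, had 169 and 0 counts and was at least 52.9-fold higher in replicate 1. Of all 15602 genes with at least 20 counts in replicate 1, 0.346% had none in replicate 2. Among the 34 members at that count 9 had none, namely Ibsp, Bglap, Bglap3, Dlx3, Dlx5, Panx3, Tnn, Dcstamp and Col10a1. This limit looks at replicate 1 only, and Dlx5 and Dcstamp have a mean count below 20. The members were also chosen on this contrast, so their share adds nothing to that choice.

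Osteocalcin, the vitamin K-dependent calcium-binding protein of mature osteoblasts, is encoded by Bglap and Bglap2, and Bglap3 is a closely related copy. The 3 genes lie side by side on the minus strand of chromosome 3 in mm10, at 88383501 to 88384464, 88377736 to 88378699 and 88368616 to 88372743. Their coding sequences are printed because, within them, reads of so similar genes can be divided only by the few bases that differ. The transcripts are longer, with 440, 471 and 717 bases, and their other parts were not compared. The coding sequences come from GENCODE M21 and have 288 bases each, read 5′ to 3′. Capitals mark the 13 positions where the 3 are not all alike.
Bglap: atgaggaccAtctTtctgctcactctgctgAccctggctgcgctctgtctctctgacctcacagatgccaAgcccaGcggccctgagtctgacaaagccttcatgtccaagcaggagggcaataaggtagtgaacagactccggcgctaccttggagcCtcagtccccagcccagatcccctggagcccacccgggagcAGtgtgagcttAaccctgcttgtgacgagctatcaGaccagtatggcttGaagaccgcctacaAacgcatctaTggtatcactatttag
Bglap2: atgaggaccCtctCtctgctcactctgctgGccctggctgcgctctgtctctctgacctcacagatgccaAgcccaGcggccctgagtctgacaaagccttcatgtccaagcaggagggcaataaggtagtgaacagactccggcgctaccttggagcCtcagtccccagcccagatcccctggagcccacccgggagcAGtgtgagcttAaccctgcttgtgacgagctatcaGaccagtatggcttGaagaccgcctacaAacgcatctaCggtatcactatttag
Bglap3: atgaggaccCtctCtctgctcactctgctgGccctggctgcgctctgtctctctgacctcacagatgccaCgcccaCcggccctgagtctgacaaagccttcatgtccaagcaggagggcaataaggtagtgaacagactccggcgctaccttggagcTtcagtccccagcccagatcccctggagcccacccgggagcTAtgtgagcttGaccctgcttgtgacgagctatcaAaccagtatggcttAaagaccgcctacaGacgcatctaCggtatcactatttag

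Bglap and Bglap2 differ at 4 of these bases (98.6% identity) and share a run of 241 identical bases. Bglap and Bglap3 differ at 13 bases (95.5%), and Bglap2 and Bglap3 at 9 (96.9%). In replicate 1 the TPM was 77.5 for Bglap, 18.8 for Bglap2 and 13.0 for Bglap3. Replicate 2 held 1 count over the 3 genes, placed in Bglap2. The ratio of Bglap2 was 185-fold, with an exact counting interval (95%) of 32.8 to 7346.5. Bglap was at least 231-fold and Bglap3 at least 76.7-fold higher in replicate 1. In the kallisto-format tables the TPMs in replicate 1 were 80.1, 12.5 and 25.9, so that Bglap2 and Bglap3 changed places. Expected counts in replicate 1 were 737 for Bglap, 197 for Bglap2 and 245 for Bglap3, and kallisto-format counts were 238, 43.3 and 249. The split of reads among the copies is therefore uncertain, and the fold values above rest on the expected counts only. Bglap led by TPM in both kinds of table, but not by kallisto-format counts. The sum was near 0 in replicate 2 in both.

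Genes that act on mineral, phosphate and signals were also higher in replicate 1, some of them by less. Alpl, the tissue-nonspecific alkaline phosphatase that frees phosphate for mineral, had 579 and 77 counts (TPM 9.20 and 0.99, 7.06-fold). Smpd3, a neutral sphingomyelinase needed for normal bone mineral, had 487 and 63 (7.26-fold). Slc13a5, a citrate carrier, had 346 and 6 (54.2-fold). Ifitm5, a small membrane protein of osteoblasts, had 57.0 and 1.73 counts, a ratio of 26.8 with a counting interval of 7.08 to 226. Panx3, a channel protein of bone and cartilage, had 97 and 0 (at least 30.4-fold). Pth1r, the receptor of parathyroid hormone, had the lowest ratio of the 16 osteoblast genes, with 310 and 128 counts (2.28-fold). Pth1r overlaps the muscle gene Myl3 on the opposite strand, Smpd3 overlaps Prmt7 and Runx2 overlaps Supt3. The preparation was stranded, but whether counting used strand is not given in the sources used here.

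The osteocyte genes Dmp1 and Phex kept counts in replicate 2. Dmp1, a phosphoprotein of the osteocyte matrix, had 1224 and 145 counts (TPM 16.3 and 1.70, 7.93-fold). Phex, an endopeptidase that restrains the phosphate hormone Fgf23, had 636 and 66 counts (4.91 and 0.48, 9.05-fold). The markers of deeper, mature osteocytes were scarce in both libraries. Mepe, a matrix phosphoglycoprotein, had 9 and 0 counts, and Sost, the Wnt inhibitor sclerostin, 10 and 0. Dmp1, Ibsp, Mepe and Spp1 lie together within 238 kb of chromosome 5 (mm10, 104202613 to 104441050). These neighbours did not share 1 ratio, since Dmp1 kept 145 counts in replicate 2 where Ibsp had none.

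Osteoclast genes were led by secreted enzymes. Ctsk, cathepsin K, the main collagen-degrading protease of osteoclasts and also a product of fibroblasts, had 3133 and 496 counts (TPM 78.6 and 10.9, 5.93-fold). Acp5, tartrate-resistant acid phosphatase, had 1937 and 35 counts (54.8 and 0.87, 52.0-fold). Mmp9, a gelatinase of osteoclasts and neutrophils, had 3676 and 69 counts (42.8 and 0.96, 50.0-fold). Acp5 and Mmp9 thus had near-equal ratios, while that of Ctsk was far lower.

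Members linked to osteoclast fusion stood below a TPM of 2 in both libraries. Atp6v0d2, the proton pump subunit linked to osteoclast fusion, had 123 and 7 counts (16.5-fold), whereas its general counterpart Atp6v0d1 had a TPM of 24.0 and 23.3. Dcstamp and Ocstamp, membrane proteins required for fusion, had 37 and 0 counts and 58 and 6 counts. Dcstamp was at least 11.6-fold and Ocstamp 9.08-fold higher in replicate 1, the latter with a counting interval of 3.93 to 25.8. In kallisto-format counts Ocstamp had 76.3 and 15.2, and its log2 ratio was 2.15 against 3.08. Tnfrsf11a, the receptor RANK, had the lowest ratio of the class at 1.70-fold, with 127 and 70 counts. Its log2 ratio of 0.77 became 1.007 with library totals and 1.16 with spike-in totals, past 2-fold. Its ligand Tnfsf11, or RANKL, made by osteoblast-lineage cells, had 11 and 2 counts, a ratio of 5.17 with a counting interval of 1.13 to 48.0. Tnfrsf11b, the decoy receptor osteoprotegerin, which was singled out after its values were seen, had a TPM of 1.72 and 1.55.

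Of the 7 cartilage genes at a mean count of 20 or more, Col10a1 and Col9a1 were past 2-fold. Col10a1, the collagen of hypertrophic chondrocytes, had 179 counts (TPM 2.09) in replicate 1 and 0 in replicate 2, at least 56.1-fold higher. Other cartilage genes had lower ratios. Col2a1, the main cartilage collagen, had 1923 and 1750 counts (14.7 and 11.5, 1.03-fold). Acan, the aggregating proteoglycan, had 418 and 327 (1.20-fold), and Sox9, the factor that sets chondrocyte fate, 136 and 114 (1.12-fold). Hapln1, the link protein that binds aggrecan to hyaluronan, had 105 and 58 (TPM 1.04 and 0.34, 1.70-fold by scaled counts). Its count ratio passed 2-fold with library totals (log2 ratio 1.00) and spike-in totals (1.15). Col9a1, a collagen on the surface of type II fibrils, had 34 and 14 (2.28-fold).

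The matrilins, adaptor proteins of cartilage matrix, were scarce. Matn3 had 20 and 33 counts and was the 1 gene of the 39 with a higher value in replicate 2, at a log2 ratio of -0.80. Matn1 had 4 and 0 counts. Col10a1 lies within the gene Nt5dc1, which is on the opposite strand and had 192 and 146 counts.

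The collagen Col2a1 is made in a long form that retains exon 2, found in chondrocyte precursors and other tissues, and a short form without it, found in mature cartilage. The long form, with 54 exons, holds exon 2 of 204 bases (chromosome 15, 98000403 to 98000606, mm10), and the short form, with 53 exons, lacks it. As annotated, exon 1 also differs, with 287 bases in the long form and 249 in the short. Their shares therefore need not rest on exon 2 alone. Transcript shares within a library were not used to choose the genes. The long form held 56.5% of the gene's abundance in replicate 1 and 68.2% in replicate 2, and the short form held 36.7% and 26.9%. In the kallisto-format tables the long form held 60.4% and 67.2%, and the short form 33.3% and 32.1%. The long form led in both libraries by both tables. These shares rest on model-divided counts of 1174 and 1262 for the long form and 727 and 473 for the short form.

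**Figure D4:**
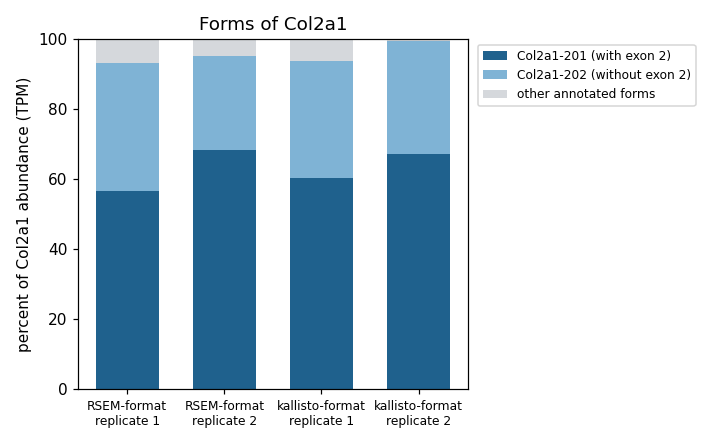
Percent of Col2a1 abundance held by the form with exon 2, the form without it and all other annotated forms, for both libraries and both kinds of table. The form with exon 2 holds between 56.5% and 68.2% in each of the 4 bars.

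Of 23 members with several annotated transcripts and at least 20 counts in replicate 1, 18 had the same leading transcript in both kinds of table. The 5 that did not were Acp5, Pth1r, Runx2, Slc13a5 and Spp1, whose transcript shares are therefore not read further. At the gene level, 31 of the 32 members had a ratio of the same sign in both kinds of table. The exception was Col2a1, at 0.05 and -0.0063.

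Ahsg, or fetuin-A, is made in liver, circulates in plasma and accumulates in bone mineral as a protein. Its transcript had 279 and 4 counts (TPM 7.14 and 0.18, 65.5-fold). The liver gene Alb, serum albumin, had 906 and 32 counts. The part of liver RNA in the value of Ahsg was not tested.

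The promoters of 4 genes with wide gaps are printed to show what their start regions hold. Each runs from 250 bases before to 50 bases after a RefSeq start in GRCm38.p6, 5′ to 3′ along the gene. Capitals mark 2 motifs on either strand. TGTGGT (reverse ACCACA) is the core that Runx factors bind. TATAAA (reverse TTTATA) has the letters of a TATA box and is marked wherever it falls, so a marked stretch need not be one. Ibsp is at chr5:104299037-104299336 (+), Bglap at chr3:88384417-88384716 (-), Spp1 at chr5:104434861-104435160 (+) and Mmp13 at chr9:7272264-7272563 (+).
Ibsp: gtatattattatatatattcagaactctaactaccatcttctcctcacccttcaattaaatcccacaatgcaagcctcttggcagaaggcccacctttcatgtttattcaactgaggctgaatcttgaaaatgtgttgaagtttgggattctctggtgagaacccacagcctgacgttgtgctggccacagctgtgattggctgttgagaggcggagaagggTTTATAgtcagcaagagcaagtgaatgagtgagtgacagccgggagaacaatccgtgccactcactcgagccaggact
Bglap: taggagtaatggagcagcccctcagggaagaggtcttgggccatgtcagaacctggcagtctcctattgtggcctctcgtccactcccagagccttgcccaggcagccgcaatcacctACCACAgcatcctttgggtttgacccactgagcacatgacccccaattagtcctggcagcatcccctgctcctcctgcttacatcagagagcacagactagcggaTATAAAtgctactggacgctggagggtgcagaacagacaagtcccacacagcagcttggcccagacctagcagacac
Spp1: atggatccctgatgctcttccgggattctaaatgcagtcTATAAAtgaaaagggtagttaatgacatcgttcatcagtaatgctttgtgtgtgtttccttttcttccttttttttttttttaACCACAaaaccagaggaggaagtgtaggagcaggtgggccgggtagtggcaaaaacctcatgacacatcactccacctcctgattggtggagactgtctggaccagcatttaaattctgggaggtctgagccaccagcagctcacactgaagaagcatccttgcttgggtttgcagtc
Mmp13: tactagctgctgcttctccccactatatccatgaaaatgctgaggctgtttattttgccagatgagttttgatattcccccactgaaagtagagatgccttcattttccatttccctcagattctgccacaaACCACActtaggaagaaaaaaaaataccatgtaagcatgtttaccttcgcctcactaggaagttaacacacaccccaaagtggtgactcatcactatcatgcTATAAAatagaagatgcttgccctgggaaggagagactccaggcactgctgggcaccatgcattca

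The Runx core began at -132 in Bglap, -128 in Spp1 and -118 in Mmp13, counted from the start, and was not among the letters of the Ibsp window. TATAAA began at -28 in Ibsp (as TTTATA), at -27 in Bglap, at -16 in Mmp13 and at -211 in Spp1. RefSeq windows were matched for 26 of the 39 genes, 37 windows in all. Of these, 8 windows (21.6%) held the Runx core, against 16.8% of all 32851 windows. TATAAA was held by 8 windows (21.6%), against 13.6% of all. The homeobox core TAATTA, its own reverse, was held by 6 (16.2%), against 5.29%. The motifs were chosen with the values known, and a match is a run of letters, not a site shown to be bound.

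Further genes of these cells come from lists kept apart from the 39. Since the 39 were chosen by their ratio, a lower ratio outside them is not read as a result. Of 21 further osteoblast and osteocyte genes at a mean count of 20 or more, 4 (19.0%) were at least 2-fold higher in replicate 1, against 4.05% of all genes, and the median log2 ratio was 0.41. Among them, Dkk1, a Wnt inhibitor, had 40 and 0 counts, Vdr, the vitamin D receptor, 128 and 23, and the membrane collagen Col13a1, outside the rule for naming, 246 and 109. The abundant matrix genes Col1a1, Col1a2 and Sparc, which fibroblasts also make, stood at log2 ratios of 0.63, 0.59 and 0.21. With spike-in totals 7 of the 21 passed 2-fold, Col1a1, Omd and Cdh11 being added, and with library totals 5. Of 16 further osteoclast genes 3 (18.8%) were past 2-fold under each of these scalings, at a list median of 0.11. These were Slc9b2, a sodium-proton exchanger, with 108 and 3 counts, the integrin Itgb3 (log2 ratio 1.34) and the proton pump subunit Tcirg1 (1.21). Nfatc1, the master factor of osteoclasts that muscle also makes, stood at -0.18. None of 11 further chondrocyte genes was past 2-fold, at a median of 0.31, with Col11a1 at 0.97, Fgfr3 at 0.80 and Col11a2 at 0.66. With library or spike-in totals Col11a1 and Fgfr3 would pass 2-fold, and with spike-in totals Col11a2 as well.

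Most neutrophil and erythroblast markers with enough counts were past 2-fold towards replicate 1, and markers of other blood-forming cells were mixed. Over all genes at a mean count of 20 or more, 4.05% were past 2-fold in that direction. Summed TPM of 11 neutrophil genes was 61.4 and 2.22, and 7 of the 8 at that count were at least 2-fold higher in replicate 1. Of the 11, Ngp, Camp, Elane, Mmp8 and Chil3 were at 0 counts in replicate 2. Summed TPM of 8 erythroblast genes was 18.4 and 7.75, with 4 of 5 past 2-fold, among them Slc4a1, Hemgn and Epb42, with Alas2 at a log2 ratio of 0.36, and Hemgn, Rhag, Klf1 and Gata1 at 0. The 9 genes of B cell precursors summed to 20.4 and 11.4, of which Ebf1, also made in other cells, held 16.0 and 10.8, with Rag1, Pax5 and Cd79b of 4 past 2-fold and Vpreb1, Vpreb3 and Dntt at 0. The 5 megakaryocyte genes summed to 20.7 and 14.6, with Ppbp of 3 past 2-fold, Pf4 at a log2 ratio of 0.13, Itga2b at 0.25 and Gp1bb at 0. Their part in the values of Mmp9, Acp5 and Spp1, which such cells and macrophages can also make, was not tested.

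None of 11 macrophage, 10 tendon, 10 fibroblast or 12 muscle fibre genes was at least 2-fold apart in either direction. Among all genes, 4.05% were past 2-fold towards replicate 1 and 0.5% towards replicate 2. A count of 0 in lists this short lies near those shares and does not show equal levels. The summed TPMs were 103 and 77.7 for macrophage, 299 and 258 for tendon, 2512 and 2002 for fibroblast genes, and none of these markers was at 0. The median log2 ratios were 0.20, -0.06 and 0.04, and that of muscle fibre genes was -0.48. With spike-in totals these medians would each be 0.39 higher, and with library or spike-in totals the sign turns for tendon. Of the macrophage genes Cd68 at 0.84 would pass 2-fold with either, as would Mpeg1 at 0.64 with spike-in totals.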

How the data were processed

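Per the file headers, the deposited gene and transcript tables have the columns of RSEM and give expected counts, TPM and, per transcript, the percent of its gene's abundance. The deposited kallisto-format tables give estimated counts and TPM. The text beside the tables names mm10 and GENCODE M21, and for tool versions nothing is given in the sources used here. Both kinds of count divide shared reads by a model. Gene tables hold 81881 rows, of which 26248 name no gene (1.38e-05% and 5.00e-06% of counts) and 97 are spike-in rows (0.720% and 0.798%). They were left out, except that ERCC rows gave the spike-in scaling.

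Expected counts were rounded and scaled by TMM in edgeR 4.0.16 under R 4.3.3. Size factors of DESeq2 1.42.0, library totals, spike-in totals, kallisto-format values, other count limits, prior counts and fold limits were alternatives. A gene at 0 counts was set to a floor of 3 counts for a lower bound. Counting intervals are exact binomial (Clopper-Pearson) intervals of the share of counts in replicate 1, carried over to the ratio. Intervals and floors cover counting error only. The ratio was tested on simulated data over 15204 genes with an assumed coefficient of variation of 0.15, not estimated from these libraries. There, the 2-fold limit was passed by 47.5% of genes simulated at 2-fold, 100% of genes simulated at 4-fold and 0.940% of unchanged genes. These percentages are not error rates for the real libraries. The symbol Ankh was not matched. Tables were handled with pandas 2.3.3 in Python 3.11.15, and intervals came from scipy 1.17.1.

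The members and lists were chosen with earlier results of these data known. All 39 members are named. Of other lists, the 3 genes highest in mean TPM and the 3 with the largest ratio towards replicate 1 could be named, as could the 10 other protein coding genes with the largest such ratio at a mean count of at least 100. Some genes that the rule names are not reported here. Markers at 0 or past 2-fold under any scaling, Pf4, Itga2b, Alas2, Ebf1 and overlapping genes were named after their values were seen. No test was run, since each side holds 1 library.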

Additional observations from a re-analysis of the deposited data

How the results depend on the processing

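Of 26 members at least 2-fold higher in replicate 1, 17 were counted at a mean count of at least 100, where fewer genes enter. Osteocyte genes went from 2 to 4 with no count limit, osteoclast genes from 5 to 3 at a mean count of at least 100, and chondrocyte genes from 2 to 0 there and to 1 at a 4-fold limit. Over all genes the count of 616 became 948 with library totals, 1283 with spike-in totals, 5435 with no count limit, 95 at a mean count of at least 100 and 121 at 4-fold. Mean summed TPM in the kallisto-format tables was 240.0 against 157 for osteoblast, 15.8 against 11.9 for osteocyte, 158 against 96.8 for osteoclast and 24.3 against 18.4 for chondrocyte genes. Over protein coding genes at a TPM of 1 or more, kallisto-format TPM was a median of 1.48-fold above the other in replicate 1. Members detected in both libraries went from 5 to 10 with kallisto-format TPM and to 10 at a TPM of 0.5, and leaving out a replicate gave 5 to 29. Without a replicate the class sums ranged from 4.54 to 309 (osteoblast), 2.18 to 21.6 (osteocyte), 13.4 to 180 (osteoclast) and 14.8 to 22.0 (chondrocyte). The log2 ratio of Col2a1 turned from 0.05 to -0.0063 with kallisto-format counts. The cause of that last change was not tested. With library or spike-in totals the members past 2-fold numbered 28, with Tnfrsf11a and Hapln1 added. No paired analysis was possible because the series holds 1 group. Genes under about 20 counts, such as Mepe, Sost, Tnfsf11 and Matn1, are too shallow for a ratio to be read closely.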

Other observations

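Among all genes other than the 39, the 10 protein coding genes that leaned most towards replicate 1, at a mean count of at least 100, were of several kinds. Neutrophil genes came first, with Ngp at 219 and 0 counts, S100a8 at 205 and 1 and S100a9 at 229 and 4. The erythroid anion exchanger Slc4a1 had 490 and 30 counts (log2 ratio 3.92), and the liver genes Alb and C3, a complement protein, had 906 and 32 (4.71) and 219 and 55 (1.89). Sgms2, a sphingomyelin synthase, had 1082 and 253 counts (2.00), beside the sphingomyelinase Smpd3 among the 39 at 2.85. Slc37a2, a sugar phosphate carrier, had 400 and 106 (1.82), and Cyfip2, a regulator of the actin cytoskeleton, 315 and 49 (2.58).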
